A study of Mus musculus with 2 samples.

Results

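Ribosome biogenesis and RNA polymerase I genes were compared in mouse CD4+ T cells cultured without and with the cytokine IL-27. The 50 genes were listed by name, and a gene was measured when the array had a probe set whose only annotated symbol was that gene. This gave 44 genes, read by 71 probe sets, out of 11807 genes on the array. Ncl, Npm3, Dkc1, Gnl3 and Gtpbp4 had no probe set under their symbol in the annotation used, and the probe sets of Nob1 carried a second gene's symbol, so these 6 genes were not analysed here.

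Per the labels, naive CD4+ T cells of female C57BL/6J mice, taken from the spleen and lymph nodes, were activated for 60 h by antibodies to CD3 and CD28 bound to the plate. The untreated group received no added cytokine and the IL-27-treated group received 25 ng/ml of recombinant murine IL-27. Each group was 1 array, called the untreated array and the IL-27 array here as the labels name them. The number of mice or cultures behind each RNA sample is not given in the sources used here, so differences between cultures and an effect of IL-27 cannot be told apart, and no test was possible. The series was made to screen for transcription factors induced by IL-27, an IL-12-family cytokine whose receptor acts by STAT factors.

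A ribosome is built in the nucleolus. RNA polymerase I copies the ribosomal DNA into a long precursor, small nucleolar ribonucleoproteins (snoRNPs) guide its methylation and pseudouridylation, and assembly factors cut and fold it into the small and large subunits. Naive T cells hold little of this machinery and enlarge their nucleoli when the T cell receptor is engaged, in part through the transcription factor Myc. The cells of both arrays had been activated. With no array of unactivated cells, the part of activation in the levels of this machinery was not measured.

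Markers of CD3-bearing T cells were above background for 6 of 6 genes measured, and 5 of the 6 were lower on the IL-27 array, with a median difference of -0.20 on the log2 scale and a summed intensity of 14557 on the untreated array and 12930.1 on the IL-27 array. Cd5 had the lowest difference, -0.69. Cd4 itself stood at 343 and 395. Markers of B cells, macrophages, dendritic cells, NK cells, granulocytes and erythroid cells were above background for 6 of 26 measured genes. The summed intensity of the 4 NK markers was 207 and 55.3 on the 2 arrays, and that of the 2 CD8 markers was 137 and 196. The NK sum fell by Klrd1 (114 and 16.4) and Klrk1 (68.2 and 14.7), while Ncr1 and Klrb1c were below background on both arrays. The part of other cells in the differences below was not tested. Socs3, which STAT3 is known to induce, had intensities of 1122 and 186, the lower value being that of the IL-27 array. Il10 and Prdm1, which IL-27 is known to raise in T cells, stood at 47.2 and 189.8 on the untreated array and below the floor on the IL-27 array, at 10.7 and 16.5. These 3 genes go against the labels. Directions below follow the labels, whether the 2 labels were exchanged was not tested, and an exchange would turn every direction given.

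Ribosome biogenesis genes of the list were higher as a group on the IL-27 array, by small amounts. The list had been chosen with earlier results of these arrays known. Values set beside all genes here and below thus describe the list and are no test. All 44 were above the background floor on both arrays, a floor being set at an intensity of 20.5 from genes of other tissues. On the log2 scale, the difference (IL-27 array minus untreated array) had a median of 0.39, which is a 1.31-fold difference, against a median of 0.01 over the 7173 genes above the floor. It was above 0 for 41 of the 44 genes, where 51.8% of all genes above the floor were higher by any amount. The 3 genes on the lower side were Rrp1, Ddx21 and Rrp12.

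None of the 44 was 2-fold apart in either direction (0 genes), where 1.45% of all genes above the floor were higher by that much and 2.65% lower. At a threshold of 1.5-fold, 10 of the 44 genes (22.7%) were higher, where 5.09% of all genes were, and 0 were lower, where 7.14% of all genes were. The other 34 were within 1.5-fold. Among the 4779 genes with an intensity of at least 100 on both arrays, 3.58% were at least 1.5-fold higher, and 9 of 43 ribosome biogenesis genes in that range were. Of the 44, 33 lay above 0.22, the upper quartile of all genes above the floor, and 0 lay below the lower quartile of -0.21.

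The array's own controls moved too. The 18 probe sets for bacterial and phage transcripts, which are added to each hybridization in fixed amounts, were all higher on the IL-27 array. Their differences were 0.04 to 0.49, with a median of 0.20. They read only the transcripts bioB, bioC, bioD and cre, each by several probe sets, so they are not 18 separate controls. Those of bioB alone ran from 0.04 to 0.49, so the median is loosely set. With that median subtracted from every probe set, 34 of the 44 genes were still above 0, where 27.7% of all genes above the floor were. The median of the 44 was then 0.19, and that of all genes above the floor became -0.18. Only 1 of the 44, Rrs1, remained at least 1.5-fold higher, where 2.47% of all genes were. That count is near the share of all genes. The gap between the 44 genes and all genes, 0.37, is not altered by such a subtraction. The part of hybridization in the differences was not tested.

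**Figure D1:**
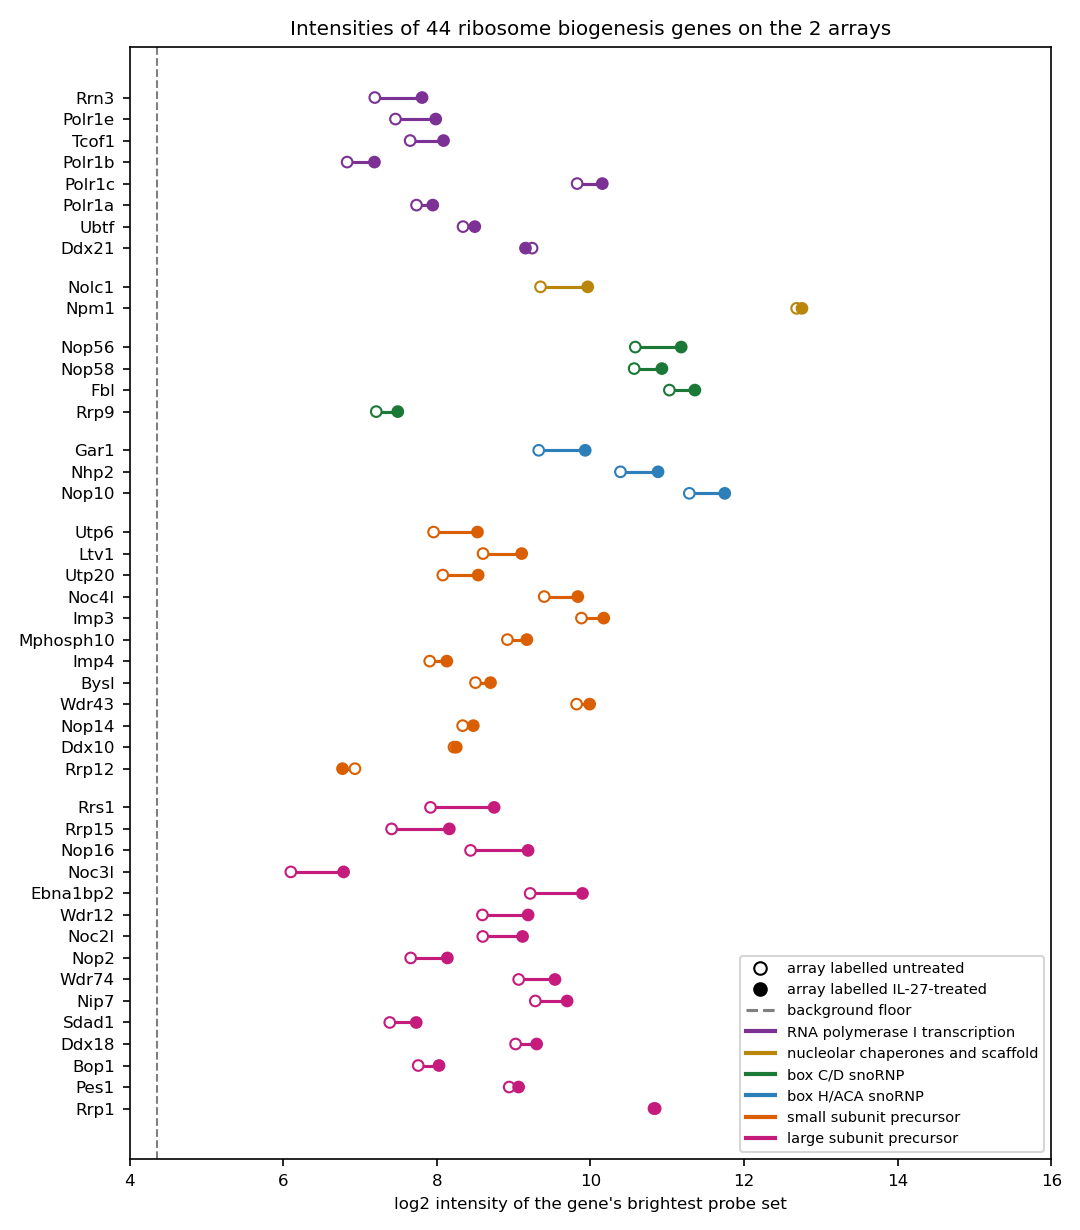
Log2 intensity of the brightest probe set of each of the 44 genes (x axis) on the untreated array (open circles) and the IL-27 array (filled circles), grouped by role in colour, with the background floor as a dashed line and 1 array per group. The filled circle lies to the right of the open one for 41 genes and to the left for Rrp1, Ddx21 and Rrp12. Positions of different genes along the axis depend on their probes and are not comparable.

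RNA polymerase I and its transcription factors were represented by 8 genes, with a median difference of 0.34. Of these, 7 were higher and 1 was at least 1.5-fold higher, where 51.8% and 5.09% of all genes above the floor were. Rrn3, also called TIF-IA, carries the polymerase to the promoter and is a main point at which growth signals act on ribosomal DNA. Its intensity was 146 on the untreated array and 224 on the IL-27 array, a 1.53-fold difference. Polr1e, a subunit that helps the enzyme start, stood at 176 and 254, a 1.44-fold difference. These were the 2 highest differences of the group, each from 1 probe set.

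Tcof1, the nucleolar protein treacle, which holds the polymerase and its factors together, had intensities of 201 and 272, a difference of 0.43. Polr1b, the second largest catalytic subunit, stood at 114 and 146, a difference of 0.36. Polr1c, which RNA polymerase III also uses, stood at 908 and 1140.0, a difference of 0.33, and its other probe set gave 0.31. Polr1a, the largest subunit, had intensities of 213 and 247 and a difference of 0.21, with 0.20 and 0.31 from its other 2 probe sets. These 4 subunits of the enzyme thus lay on the same side, between 0.21 and 0.52.

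Ubtf, the factor UBF that keeps active ribosomal genes open, had intensities of 324 and 361, a difference of 0.15 that its dimmer probe set gave as 0.11. Ddx21, a helicase that joins RNA polymerase I transcription to processing of the precursor, stood at 605 and 569.9, a difference of -0.09, while its other probe set gave 0.10. The probe sets of Ddx21 thus disagree in sign, and no direction can be read for it.

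Of the nucleolar chaperones and scaffold proteins, 2 of 4 were measured. Nolc1, also called Nopp140, carries snoRNPs into the nucleolus and binds the polymerase. It stood at 653 and 999, a 1.53-fold difference, and its 3 probe sets gave 0.61, 0.76 and 0.78. Of the genes with several probe sets above the floor, it is the only one whose probe sets were all at least 1.5-fold higher as deposited. Its brightest probe set fell below 1.5-fold under other scalings, to 0.57 after loess normalization and 0.42 with the hybridization controls subtracted. Npm1, the chaperone nucleophosmin, stood at 6583 and 6907, a difference of 0.07, with 0.24 from its other one.

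The box C/D snoRNP, which methylates ribosomal RNA at the ribose, was represented by 4 genes of the list, all on the higher side. Nop56 had intensities of 1535 and 2323, a 1.51-fold difference. Its partner Nop58 stood at 1519.5 and 1952, a difference of 0.36. Fbl, the methyltransferase fibrillarin, stood at 2088 and 2628, and both of its probe sets gave 0.33. Rrp9, the protein that marks the U3 snoRNP, stood at 148 and 180.1, a difference of 0.28. These 4 genes thus lay between 0.28 and 0.60, with Nop56 the highest. Snu13, a further core protein of the particle that was counted with the snoRNP assembly factors, stood at 2003 and 2303, a difference of 0.20.

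The box H/ACA snoRNP, which turns uridines into pseudouridines and whose proteins also bind telomerase RNA, had 3 of its 4 genes measured, all on the higher side. Gar1 had intensities of 642 and 977, a 1.52-fold difference from 1 probe set. Nhp2 stood at 1343 and 1886, a difference of 0.49, with 0.41 from its other probe set. Nop10 stood at 2499.9 and 3442, a difference of 0.46, with 0.30 from its other one. Their median of 0.49 was beside a median of 0.35 for the 4 box C/D genes of the list, and the difference between the groups was not tested.

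Assembly factors of the large subunit held most of the larger differences, with a median of 0.48. Of 15 genes 14 were higher and 6 at least 1.5-fold higher, where 51.8% and 5.09% of all genes above the floor were. Rrs1, which helps to place the 5S ribonucleoprotein, had the highest difference of the 44 genes, with intensities of 242 and 429.6, or 1.78-fold. Rrp15 stood at 170.3 and 287, a 1.68-fold difference, and Nop16 at 347 and 584, also 1.68-fold. The second probe set of Nop16 was below the floor on both arrays and gives no fold. A share of 2.13% of all genes above the floor had a higher difference than Rrs1, and 2.75% a higher one than Nop16.

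Noc3l stood at 68.6 and 110.4, a 1.61-fold difference. Noc2l, its partner in a complex of early precursors, stood at 388 and 555, a difference of 0.52. Ebna1bp2, a scaffold of the same early stage, stood at 594 and 953, a 1.60-fold difference by its bright probe set. Its dim probe set stood at 21.9 and 21.3, close to the floor, and gave -0.04.

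Wdr12, Bop1 and Pes1 form the PeBoW complex, which is needed to process the precursor of the large subunit. They did not lie together. Wdr12 stood at 386 and 584, a 1.51-fold difference, though its dimmer probe set, at 30.7 and 32.7, gave 0.09. Bop1 had intensities of 217 and 261, a difference of 0.27, and Pes1 492 and 536, a difference of 0.12.

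The remaining large subunit factors were within 1.5-fold. Nop2, a methyltransferase of the large subunit RNA, had intensities of 202 and 282, a difference of 0.48. Wdr74, Nip7, Sdad1 and Ddx18 had differences of 0.47, 0.41, 0.34 and 0.27. Ddx18, a helicase, stood at 521 and 630.5, and the dimmest of its 3 probe sets gave -0.19 from intensities close to the floor. Rrp1 stood at 1837 and 1817, a difference of -0.02, which turned to the higher side when each array's median was subtracted.

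Small subunit factors had a lower median, 0.24, with 11 of 12 genes on the higher side, where 51.8% of all genes above the floor were. At least 1.5-fold higher were 0 of the 12, where 5.09% of all genes were. In a group of 12 genes, a count of 0 is near that share. Utp6, a protein of the small subunit processome, had intensities of 249 and 369.6, a difference of 0.57, with 0.55 and 0.20 from its other probe sets. Ltv1, which rides on the late small subunit precursor, stood at 389 and 551, a difference of 0.50. Utp20, a very large scaffold protein, stood at 270.3 and 372, a difference of 0.46, and Noc4l at 675 and 914, a difference of 0.44, where its 3 probe sets spanned 0.44 to 0.51.

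Imp3, Imp4 and Mphosph10 form a complex that binds the U3 snoRNA. By their brightest probe sets their differences lay close together, at 0.29, 0.22 and 0.25. The dimmer probe sets of Imp4 and Mphosph10, close to the floor, gave 0.37 and 0.22. Bysl, which takes part in late steps, had a difference of 0.20, with 0.39 from its dimmer probe set, and Nop14 had one of 0.14. Wdr43 gave discordant values, with 0.17 from its bright probe set, at 904 and 1017, and 0.66 from its other one. Ddx10, a helicase, stood at 298.9 and 305.3, and its 2 probe sets gave 0.03 and -0.04, so it has no direction. Rrp12, a factor in the export of precursors, was the lowest of the 44 genes, with intensities of 122 and 109 and a difference of -0.16 from 1 probe set.

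The counts for the large and small subunit factors, 6 of 15 and 0 of 12 at least 1.5-fold higher, are set side by side only. With 1 array per group a difference between the groups could not be tested. The counts also rest on the processing. With each array's median subtracted, Utp6 of the small subunit group rose to 0.61, past 1.5-fold. With the mean of all probe sets, Nop16, Wdr12 and Ebna1bp2 of the large subunit group fell to 0.40, 0.34 and 0.32. After loess normalization 5 of the 44 genes, not 10, passed 1.5-fold, and Rrn3, Nolc1, Gar1, Nop56 and Wdr12 fell below it.

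**Figure D2:**
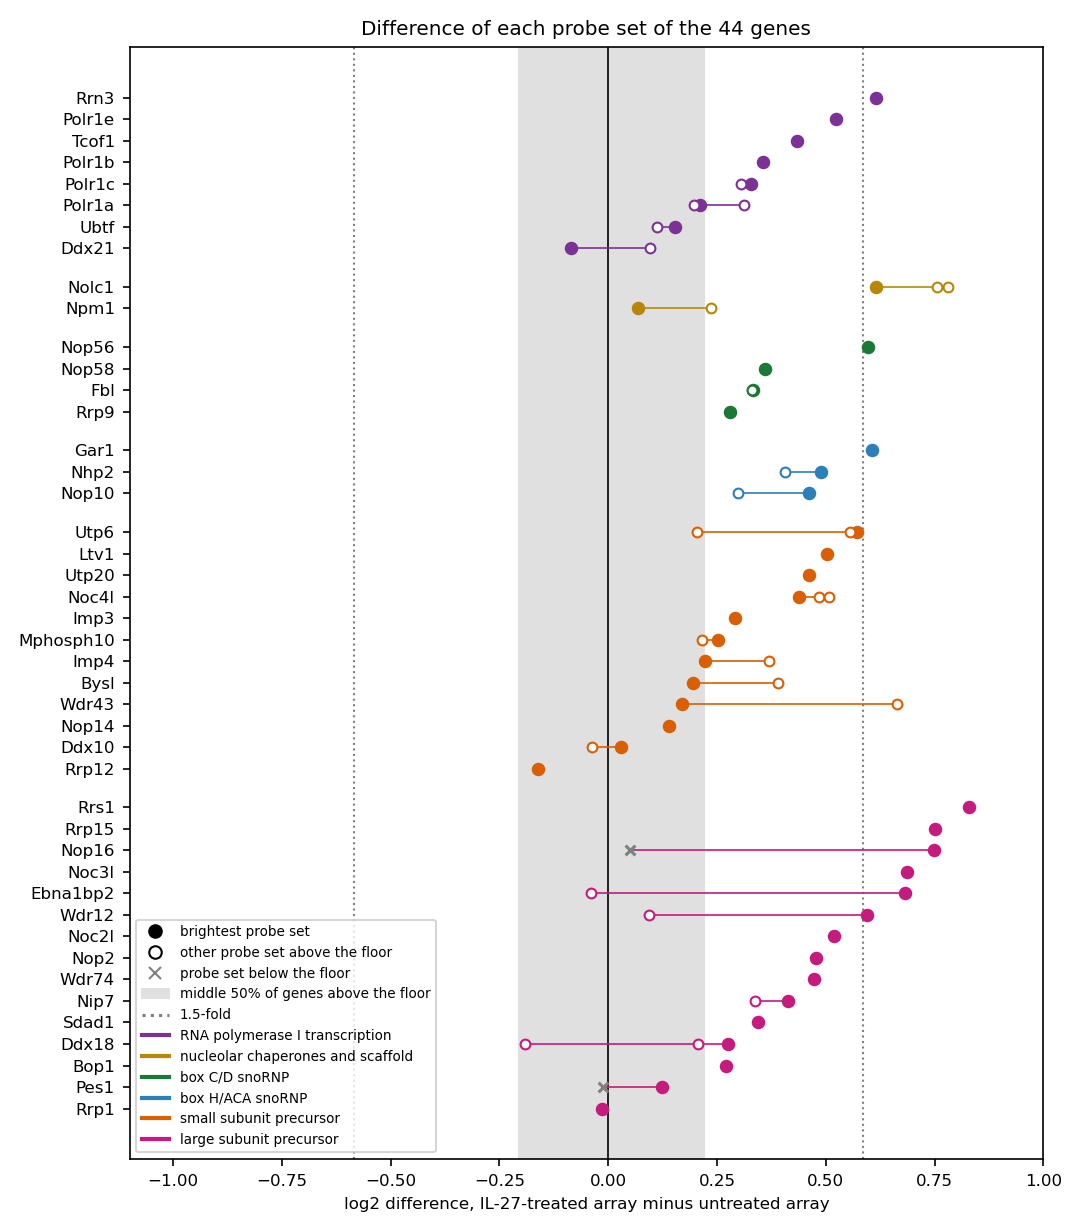
Log2 difference (IL-27 array minus untreated array, x axis) of every probe set of the 44 genes, with the brightest probe set filled, others above the floor open, and those below it as crosses. The grey band spans the middle 50% of all genes above the floor, -0.21 to 0.22, and dotted lines mark 1.5-fold. Most points lie to the right of the band, and the widest gaps between probe sets of a gene above the floor are those of Ebna1bp2, Wdr12, Wdr43 and Ddx18.

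Probe sets of the same gene gave a measure of error between probes. For the 20 genes of the list with several probe sets above the floor, the pooled SD of the difference between probe sets of a gene was 0.18. Over all 2394 genes with several probe sets above the floor it was 0.22. These values cover probes alone and not cultures or hybridizations. The hybridization controls, added in fixed amounts, spread from 0.04 to 0.49. Of the 69 probe sets above the floor, 63 were on the higher side and 6 on the lower. In 4 genes, Ddx10, Ddx18, Ddx21 and Ebna1bp2, the probe sets differed in sign. A difference as small as that of Nop14, Pes1 or Ubtf is thus within the spread of the probes. Those of Polr1a (0.21) and Bysl (0.20) also lie within the wider spread over all genes.

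Genes at or above 1.5-fold had dim signals, as Noc3l did, as well as bright ones, as Nop56 did. In bulk RNA, fewer cells of a type and less RNA per cell cannot be told apart, and normalization that makes the arrays alike hides any change in total RNA.

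**Figure D3:**
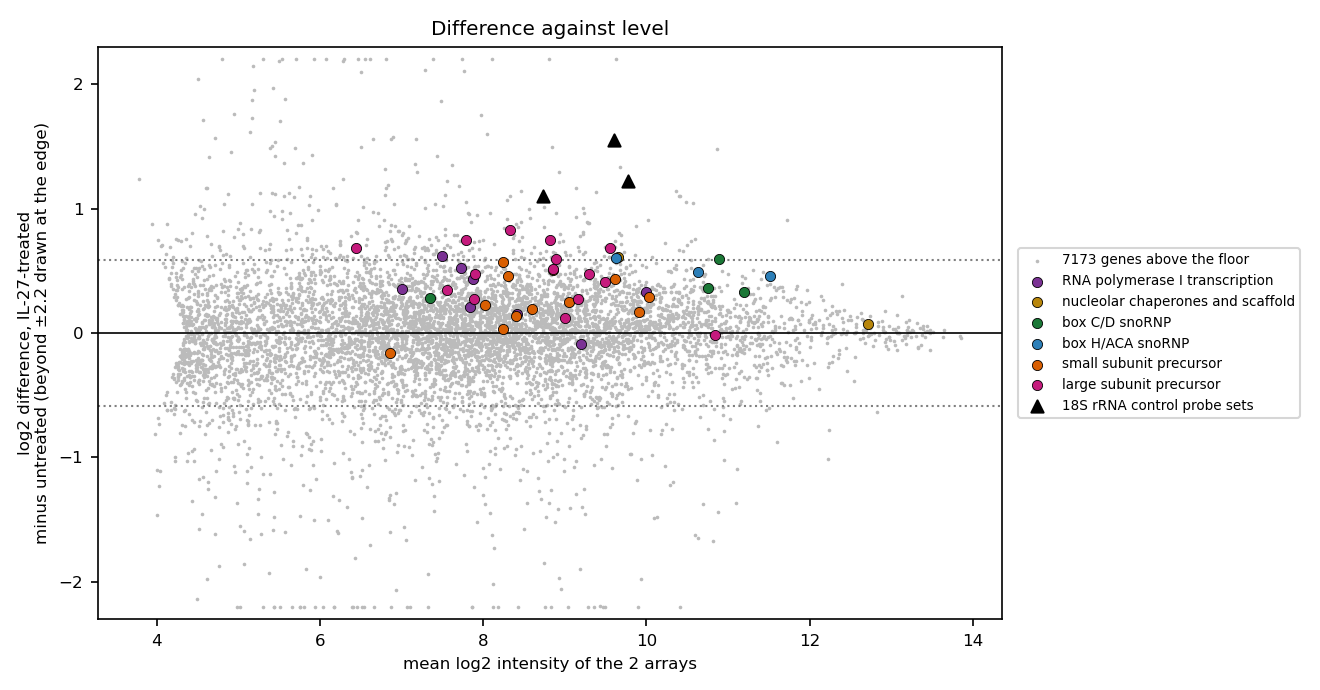
Log2 difference (y axis) against the mean log2 intensity of the 2 arrays (x axis) for 7173 genes above the floor in grey, with the 44 genes coloured by role and the 18S ribosomal RNA control probe sets as triangles. The 44 genes lie mostly between 0 and the upper dotted line at 1.5-fold across the range of levels, and the 3 triangles lie above all of them.

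The product of this machinery could be read only through the array's 18S ribosomal RNA control probe sets. All 3 were higher on the IL-27 array. The probe set for the 3′ part of 18S stood at 456 and 1336, a 2.93-fold difference, the one for the 5′ part at 575 and 1342, a 2.33-fold difference, and the one for the middle at 292 and 626, a 2.15-fold difference. Their differences of 1.55, 1.22 and 1.10 were all higher than that of Rrs1, and 84 of the 7173 genes above the floor had a difference as high as the lowest of them. Ribosomal RNA has no poly(A) tail and the labelling started from total RNA with a kit that primes on such tails, so these values are no measure of the ribosomal RNA content of the cells. With the hybridization controls subtracted, the 3 differences were 1.35, 1.03 and 0.90. Actin and Gapdh control probe sets, 6 in all, differed by -0.18 to 0.08.

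Other genes of the pathway were more often higher than lower, but few passed 1.5-fold. Of 25 other small subunit factors above the floor, 18 were higher, 1 of them at least 1.5-fold, with a median of 0.20. Esf1, Pno1 and Pwp2 led them, with differences of 0.63, 0.58 and 0.48. Of 37 other large subunit factors 27 were higher, 3 of them at least 1.5-fold, with a median of 0.20. These 3 were Rpf2 (0.74), the partner of Rrs1 in placing the 5S ribonucleoprotein, Nifk (0.61) and Las1l (0.60). Of 8 snoRNP assembly factors 6 were higher, with a median of 0.18, and Ruvbl1, a helicase-like chaperone, was the highest at 0.51. With the hybridization controls subtracted, the medians of these 3 lists came to 0.006, -4.7e-05 and -0.02, so that their direction rests on the scaling, while the median of the 44 genes was 0.19. Over the 3 lists together 51 of 70 genes (72.9%) were higher, where 51.8% of all genes above the floor were. At 1.5-fold, 4 (5.71%) were higher, close to the 5.09% of all genes, and 0 were lower, where 7.14% of all genes were. The 44 genes had been chosen with earlier results of these arrays known, so their higher median is not evidence that they differ from the rest of the pathway.

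Other RNA polymerase I factors had differences of both signs. Of 9 above the floor 5 were higher, with a median of 0.003 that turned to -0.03 after loess normalization and to -0.19 with the hybridization controls subtracted. Ttf1, which ends polymerase I transcription, had intensities of 149 and 112, a difference of -0.42, and Polr1d, a subunit shared with RNA polymerase III and the partner of Polr1c, had 2452 and 2242, a difference of -0.13. Of the subunits that all 3 nuclear polymerases use, Polr2f, Polr2l, Polr2e and Polr2h differed by 0.38, 0.26, 0.05 and -0.03.

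Genes named as cytosolic ribosomal proteins lay near 0, where all genes lay. Over 68 genes for cytosolic ribosomal proteins above the floor, the median difference was 0.004, with 39 higher and 27 lower, and 0 of them 1.5-fold apart. Values this small turn with the scaling, to 55 higher with each array's median subtracted, 31 higher after loess and 3 higher with the hybridization controls subtracted. Their lowest value was Rps21 at -0.13 and their highest Rpl7l1 at 0.48. Rpl7l1 is a paralog of Rpl7. The list was drawn by gene name, so it holds such paralogs, Rpl39l and Rps27l among them, beside the proteins of the finished ribosome. Ribosomal protein genes have many pseudogenes, and signal from them in these probe sets was not tested.

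Myc, which is known to drive many of the 44 genes, had intensities of 1181 and 1375, a difference of 0.22. That is close to the upper quartile of all genes. It is also close to the hybridization controls' median of 0.20, so little of it remains once that median is subtracted. In its network of 10 genes above the floor, 3 were higher and 7 lower, where 51.8% of all genes were higher, with a median of -0.22. The Mxd and Mxi proteins compete with Myc for its partner Max. Of these, Mxi1, Mxd1 and Mxd4 were among the lower ones, while Mxd3 hardly differed, at -0.004. Mxi1 stood at 1201 and 736, a difference of -0.71. It was the only one of the network past 1.5-fold, where 7.14% of all genes were at least 1.5-fold lower. Mxd1, at 28.6 and 19.9, was below the floor on the IL-27 array, and Mxd4 differed by -0.46. The network's median was negative under each scaling run. Since the list holds Myc and proteins that compete with it, this median gives no direction for Myc itself.

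**Figure D4:**
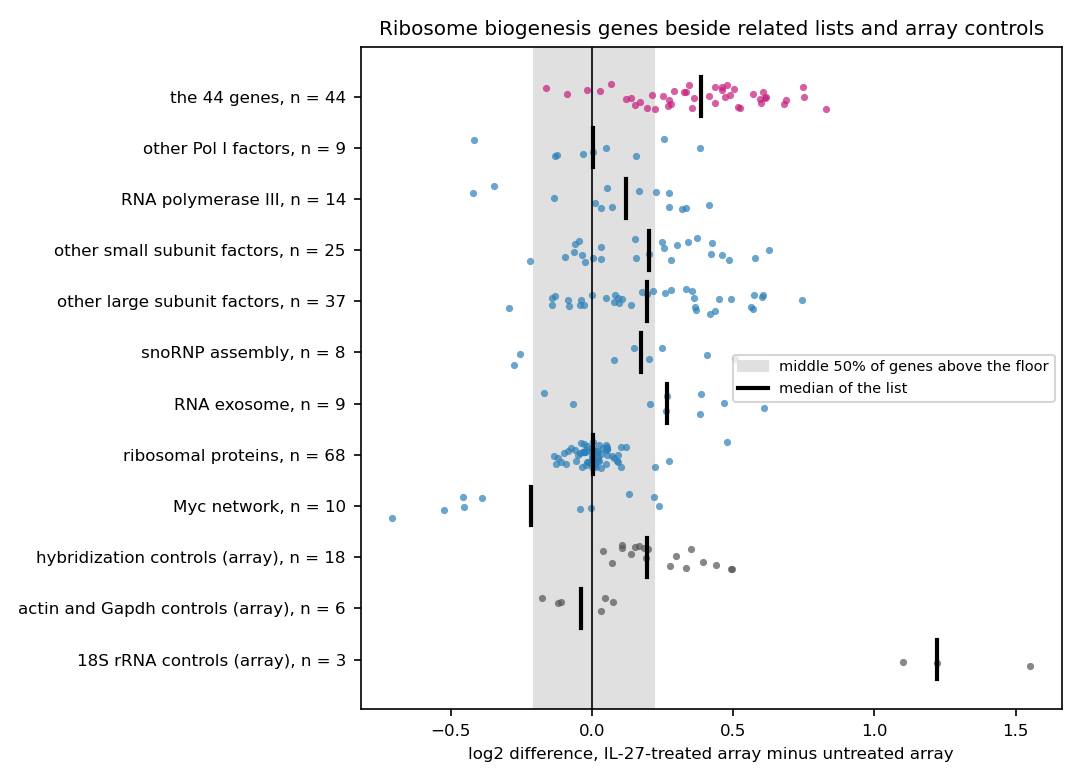
Log2 difference (IL-27 array minus untreated array, x axis) of each gene above the floor in the 44 genes, 8 related lists and 3 kinds of array control probe sets, with black bars at the medians and the middle 50% of all genes above the floor in grey. The median is 0.39 for the 44 genes, 0.20 for both lists of other subunit factors, 0.004 for ribosomal proteins, -0.22 for the Myc network, 0.20 for hybridization controls and 1.22 for 18S.

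Promoter sequences were examined for the E-box CACGTG, the site that Myc and Max bind, because the genes moved together. RefSeq promoters of build GRCm38.p6, from 250 bases before to 50 after a transcription start, were found for 37 of the 44 genes. The E-box reads alike on both strands. It was present in 8 of the 37 genes (21.6%), in 12.6% of 5909 genes above the floor with a promoter entry, and in 7.15% of all 32851 promoters. Rrn3 held 2 copies, 215 and 48 bases before its start. The 250 bases before the start of Rrn3, chr16:13780449-13780698 on the plus strand, are shown with the E-boxes in capitals.
Rrn3: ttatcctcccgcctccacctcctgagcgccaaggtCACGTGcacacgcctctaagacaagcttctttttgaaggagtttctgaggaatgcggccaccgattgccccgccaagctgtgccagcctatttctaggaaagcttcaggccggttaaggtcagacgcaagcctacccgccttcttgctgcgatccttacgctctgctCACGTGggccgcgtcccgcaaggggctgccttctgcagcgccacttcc

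The other 7 genes held 1 copy each. It began before the start in Nop2 (60 bases) and Imp4 (121 bases), and after it in Ltv1, Utp20, Sdad1, Wdr43 and Pes1. Windows of up to 30 bases around the E-box, in capitals, are shown so that the flanks can be read, in order of falling difference.
Ltv1: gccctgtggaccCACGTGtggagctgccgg
Nop2: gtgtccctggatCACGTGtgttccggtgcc
Utp20: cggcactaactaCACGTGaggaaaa
Sdad1: agcggcgtgtccCACGTGccgtttccggtt
Imp4: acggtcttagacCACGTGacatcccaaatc
Wdr43: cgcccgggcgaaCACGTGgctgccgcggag
Pes1: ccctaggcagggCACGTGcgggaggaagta

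These windows lie at chr10:13193092-13193121 (Ltv1, minus strand), chr6:125131811-125131840 (Nop2, plus), chr10:88826765-88826789 (Utp20, minus), chr5:92309986-92310015 (Sdad1, minus), chr1:34439696-34439725 (Imp4, plus), chr17:71616220-71616249 (Wdr43, plus) and chr11:3963965-3963994 (Pes1, plus). The median difference was 0.40 over the 8 genes with an E-box, spanning 0.12 to 0.62, and 0.41 over the 29 genes without one, spanning -0.09 to 0.75, so the ranges overlapped.

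Other motifs were searched on both strands in the same promoters, without removing overlaps between motifs. The ETS family core CCGGAAG was found in 16 of the 37 genes (43.2%) and in 23.1% of the genes above the floor, and the Sp1 box GGGCGG in 28 (75.7%) and 70.9%. The STAT element TTCNNNGAA, in Noc4l, Nop58, Polr1b and Rrn3, was found in 4 (10.8%) and 8.39%, and TATAAA in 2 (5.41%) and 8.75%. The palindrome that NRF1 binds was in 5 (13.5%) and 16.6%, and a longer CGCG palindrome in 0 and 1.29%. Over all 32851 promoters, in the same order, the shares were 8.86%, 35.7%, 8.30%, 13.6%, 6.23% and 0.466%. A match is a description of these letters and shows no binding.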

How the data were processed

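Biotin-labelled cRNA was made from 100 ng of total RNA of each of 2 samples, 1 per group, by a 3′ IVT kit, per the labels' protocols. The deposited table gives linear intensities, 1 for each probe set on each array. They were made by RMA, per the submitters' processing notes, a method that corrects background, makes the arrays' distributions alike and summarises probes. Version, settings and genome build: not given in the sources used here. Median intensities were 33.3 and 32.4.

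Probe sets with 1 gene symbol in the platform annotation (18003 of 22716; 287 had several and 4426 none) were used. Intensities were taken to log2 with no pseudocount and no further normalization, in Python 3.11.15 with pandas 2.3.3. A gene was read by its brightest probe set. The floor was the 95th percentile of 42 measured genes of other tissues, out of 51 listed. A gene was above it when it exceeded it on at least 1 array. Folds of 2 and 1.5 served as thresholds, and no p-value is given. The calculation was tested on simulated data.

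The 44 measured genes are all accounted for. Values per array were given for the 6 highest and 6 lowest differences, the 6 brightest genes, RNA polymerase I, snoRNPs and genes whose probe sets differ in sign, and up to 3 genes per related list; others were named after their values were seen. Members, lists and motifs were chosen with earlier results of these data known. Alternatives covered the floor, normalization, probe set and pseudocount; subtracting the hybridization controls was added after seeing the data.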

Additional observations from a re-analysis of the deposited data

How the results depend on the processing

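With 1 array per group there were no replicates to leave out, and no paired analysis was possible because each group has 1 array. The median of the ribosome biogenesis genes was 0.39, and it was 0.42 with each array's median subtracted, 0.35 after loess normalization, 0.36 with the mean of all probe sets, 0.36 with probe sets of the x_at and s_at types left out (42 genes, without Gar1 and Nop56) and 0.19 with the hybridization controls subtracted, an alternative chosen after seeing the data. The count at least 1.5-fold higher was 10, and it was 5 after loess and 1 with the hybridization controls subtracted. Under the other settings it lay between 7 and 11. The median less that of all genes lay between 0.34 and 0.40 under all settings run. The counts at least 2-fold apart and at least 1.5-fold lower were 0 under all of them. With the mean of all probe sets, Ebna1bp2, Nop16, Wdr12 and Wdr43 moved by more than the spread between probe sets, to 0.32, 0.40, 0.34 and 0.42. Genes on the lower side numbered 2 with medians subtracted, 4 after loess and 10 with the hybridization controls subtracted. The median of the RNA polymerase III list turned to -0.08 with the hybridization controls subtracted. Differences below the pooled SD of 0.18 are within the spread between probe sets.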

Other observations

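The list for the RNA exosome, which trims ribosomal precursors and degrades their spacers, held 9 genes above the floor. C1d, Mphosph6 and Xrn2 among them are not core subunits. Of the 9 genes 7 were higher, where 51.8% of all genes were, with a median of 0.27 that became 0.07 with the hybridization controls subtracted. Dis3, a catalytic subunit, had intensities of 285 and 435, a 1.53-fold difference, Exosc2 differed by 0.47 and Exosc9 by 0.39, while Exosc10, the nuclear catalytic subunit, differed by -0.17. Of 14 genes for RNA polymerase III and its factors, which make 5S ribosomal RNA and transfer RNA, 11 were higher, with a median of 0.12 that turned negative with the hybridization controls subtracted. Polr3e was the highest at 0.41, and Polr3gl was the lowest at -0.42. The repressor Maf1 differed by -0.13.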
